A study of Mus musculus with 9 samples.

Results

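The 43 genes described here encode enzymes of the urea cycle and of amino acid breakdown in mouse liver. They were listed by name and function, as urea cycle enzymes, transaminases and enzymes that degrade single amino acids. The list was made with earlier results of these data known. Its shares set beside those of all genes are therefore a description and not a test. All 43 were among the 19329 gene symbols of the deposited tables, and all 43 had enough counts to be tested. The 9 livers were those of C57BL/6J mice, a widely used inbred strain. The HSD group is 4 mice that ate a high-sucrose diet for 3 weeks, starting at 8 weeks of age, and the Chow group is 5 mice kept on standard chow, with all livers taken at 11 weeks. Both groups ate chow until the diets were split, the labels name no transgene or drug, and each library came from 1 mouse, named here HSD 1 to HSD 4 and Chow 1 to Chow 5. The sex of the mice and the protein content of the diets are not given in the sources used here.

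Amino acids that are not used for protein lose their nitrogen in the liver, mostly through transaminases that pass it to glutamate, and the urea cycle turns the ammonia and aspartate that result into urea. The carbon skeletons then enter gluconeogenesis, ketone body or energy metabolism through pathways that are particular to each amino acid. Many of these enzymes are made mainly in hepatocytes, several of them most strongly near the portal vein, and many are known to follow protein intake, fasting, glucagon and glucocorticoids.

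Estimated counts summed to 14040723 to 24825322 in the HSD livers and to 12769668 to 25913869 in the Chow livers, and 12091 genes passed the filter on low counts. Over all of these, 391 genes were lower on HSD and 416 higher at an adjusted p under 0.05 (edgeR's quasi-likelihood test, Benjamini-Hochberg over all genes tested). With library totals in place of TMM scaling (trimmed mean of M values), the share of the calls that were higher was 69.1%, against 51.5% with TMM. On the TPM values with limma it was 82.5%, where the median log2 fold change of all genes moved to 0.14. Hepatocyte markers were high in every liver and 0 of 6 passed (edgeR, 0 also at an unadjusted p under 0.05 and 0 with DESeq2 or limma), while 1 of 4 markers of neutrophils and 3 of 5 of exocrine pancreas (*Cpa1*, *Pnlip* and *Prss2*) were listed at 0. Of the remaining pancreas markers, *Cela1* was lower on HSD (log2 fold change -0.81 ± 0.19 SE, adjusted p = 0.0292) and *Cela2a* did not pass, and the list summed to 27.9 to 47.0 TPM (transcripts scaled for length and library) in the HSD livers and 43.5 to 85.1 TPM in the Chow livers. Livers of the same diet stood apart in acute phase, red blood cell and clock genes. Acute phase genes, which the liver makes in inflammation, summed to 16390 to 18310 TPM in the HSD livers, against 112600 TPM in Chow 1 and 14580 to 22030 TPM in the remaining Chow livers. Red blood cell markers summed to 217 to 384 TPM in the HSD livers, against 1040 TPM in Chow 2 and 231 to 253 TPM in the remaining Chow livers. The clock genes *Arntl* and *Dbp*, which peak at opposite times of the day, differed between livers of the same diet. *Arntl* stood at 9.15, 4.22, 4.23 and 4.20 CPM in HSD 1 to HSD 4, against 4.40, 1.64, 9.24, 1.35 and 1.56 CPM in Chow 1 to Chow 5, so Chow 1 and Chow 3 lay in or near the range of the HSD livers and above the remaining Chow livers.

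Of the 43 enzyme genes, 13 fell on HSD at an adjusted p under 0.05, which is 30.2% of them, against 3.23% of all genes tested. None of the 43 rose (0 by edgeR, DESeq2 and limma), against 3.44% of all genes tested. At an unadjusted p under 0.05, 0 were higher with edgeR, 1 with edgeR without Chow 2 and 2 with limma on the TPM values. The other 30 did not pass, of which 10 had an unadjusted p under 0.05 and were lower, so that 23 of the 43 were lower at that level against 11.6% of all genes. The log2 fold change was under 0 in 40 of the 43 genes, against 50.4% of all genes, in 37 of 43 with library totals and in 31 of 43 on the TPM values. Its median was -0.38 over the 43 genes, with a range of -1.58 to 0.23, against a median of -0.00392 over all genes tested. It was -0.23 without Chow 2 and between -0.46 and -0.33 without any one of the other livers. In 16 of the 43 genes every HSD liver lay below every Chow liver in CPM (a gene's share of its library's counts, scaled by TMM), against 5.51% of all genes, and in 0 every HSD liver lay above, against 5.84% of all genes. This separation depended on the scale. On the TPM values the diets overlapped in *Otc*, *Asl*, *Hal*, *Ivd*, *Hpd*, *Ahcy* and *Gnmt*, which are among these 16. DESeq2 called 18 of the 43 lower and 0 higher, against 5.26% and 5.02% of all genes it tested. These livers are whole tissue, so fewer cells of a type and less RNA per cell cannot be told apart.

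The count of 13 moved with the livers used and the scale of the values. It was 8 without HSD 3 and 7 without HSD 4, and 18 without Chow 1, while 1.84%, 1.40% and 4.11% of all genes were called lower. On log2(TPM + 1) with limma the count was 5, namely *Gpt*, *Bhmt*, *Cth*, *Agxt* and *Agxt2*, against 0.958% of all genes. With the 2 HSD and 4 Chow livers of the first label series alone it was 0, against 0.154% of all genes. In that fit 14 of the 43 were lower at an unadjusted p under 0.05 from edgeR.

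**Figure D1:**
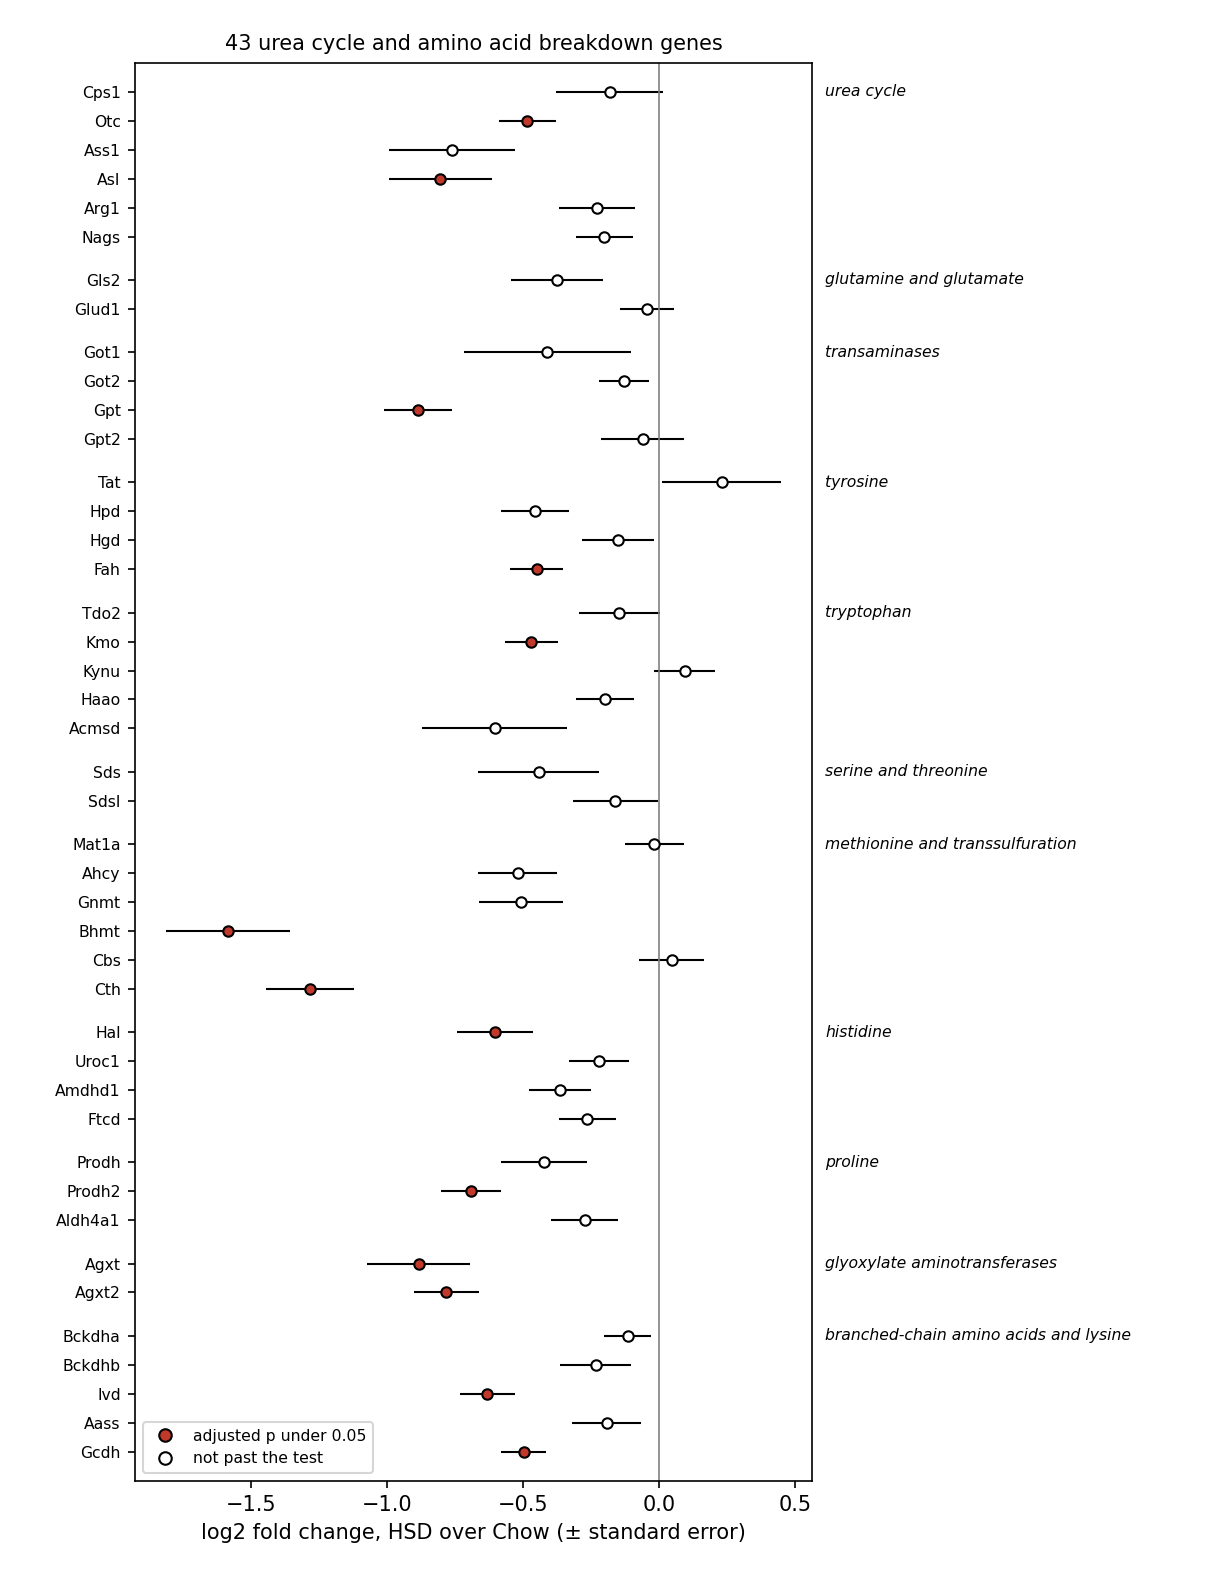
Log2 fold change, HSD over Chow, with its standard error from edgeR, for all 43 genes in groups by pathway (rows). Filled points are the 13 genes with an adjusted p under 0.05, all of them left of 0, and the open points are the 30 that did not pass, 3 of them right of 0.

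Of the 6 genes of the urea cycle, 2 fell, *Otc* and *Asl*, and all 6 had a log2 fold change under 0, with a median of -0.36 and a range of -0.80 to -0.18. Values after ± are standard errors (SE) of the log2 fold change from edgeR, unless an SD is named. *Otc* encodes ornithine transcarbamylase, which joins carbamoyl phosphate to ornithine in the mitochondrion (chromosome X, 10252305 to 10321024, plus strand). It stood at 298, 284, 276 and 309 CPM in HSD 1 to HSD 4, against 336, 466, 402, 426 and 411 CPM in Chow 1 to Chow 5. In CPM no HSD liver reached the lowest Chow liver, Chow 1, and the log2 fold change was -0.48 ± 0.11 (SE, adjusted p = 0.0197). In TPM, however, Chow 1 (161.1 TPM) lay below every HSD liver (169.6 to 188.6 TPM). *Asl* encodes argininosuccinate lyase, which releases arginine and fumarate (chromosome 5, 130011258 to 130029247, minus strand), and stood at 282, 290.4, 314 and 319.8 CPM in HSD 1 to HSD 4, against 356, 708, 384, 543 and 639 CPM in Chow 1 to Chow 5. The HSD livers lay close together, while the Chow livers spread from just above them in Chow 1 and Chow 3 to far above them in Chow 2, with a log2 fold change of -0.80 ± 0.19 (SE, adjusted p = 0.029). Both calls were sensitive to single livers. The call of *Otc* was lost without any one of the 4 HSD livers (adjusted p = 0.0524 to 0.0642), and that of *Asl* without any one of them (0.0674 to 0.0912) or without Chow 4 (0.0512) or Chow 5 (0.0583). With library totals in place of TMM the call of *Otc* was lost as well.

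The other 4 genes of the cycle did not pass. *Ass1*, argininosuccinate synthase, makes the substrate of *Asl* and was the most abundant of the 43 transcripts per length, at 2239 ± 163 TPM in HSD livers and 3422 ± 1369 TPM in Chow livers (SD, n = 4 and 5). In CPM it stood at 2600, 2345, 2453 and 2710 CPM in HSD 1 to HSD 4, against 2621, 6389, 2867, 4738 and 4777 CPM in Chow 1 to Chow 5. The lowest Chow liver, Chow 1, lay within the HSD range, Chow 3 just above it and the other 3 Chow livers far above, and the log2 fold change was -0.76 ± 0.23 (SE, adjusted p = 0.0731). Without Chow 1 or Chow 3 it passed (adjusted p = 0.0165 and 0.0471), as it did with DESeq2 (0.00843), while 43.1% of its 31-base sequences occur in other transcripts, chiefly *Gm5424*, which was not analysed here. *Cps1*, carbamoyl phosphate synthetase, brings ammonia into the cycle and stood at 4260, 3639, 4662 and 5067 CPM in HSD 1 to HSD 4, against 3049, 5925, 4199, 5848 and 5938 CPM in Chow 1 to Chow 5. Its diets overlapped (log2 fold change -0.18 ± 0.20 SE, adjusted p = 0.628), and on the TPM values its log2 fold change was 0.02. *Arg1*, the arginase that splits off urea, stood at 913, 1006, 1135 and 976 CPM in HSD 1 to HSD 4, against 1066, 1543, 981, 1059 and 1242 CPM in Chow 1 to Chow 5, with a log2 fold change of -0.23 ± 0.14 (SE, adjusted p = 0.361). Here Chow 1, Chow 3 and Chow 4 lay among the HSD livers. *Nags*, which makes the activator of *Cps1*, had a log2 fold change of -0.20 ± 0.10 (SE, adjusted p = 0.272). Summed over the 6 genes, the TPM of the cycle was 4443 to 5206 in the HSD livers and 3810 in Chow 1, 4639 in Chow 3 and 7268 to 8871 in the other Chow livers, so Chow 1 and Chow 3 were not above the HSD livers.

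Nitrogen enters these steps through glutaminase, glutamate dehydrogenase and the transaminases, and of these 6 genes *Gpt* alone passed. *Gpt* encodes the cytosolic alanine aminotransferase, which takes the amino group of alanine and leaves pyruvate (chromosome 15, 76695716 to 76699686, plus strand). It stood at 107, 142, 143 and 138 CPM in HSD 1 to HSD 4, against 209, 267, 209, 266 and 272 CPM in Chow 1 to Chow 5, with HSD 1 lowest and every HSD liver far below the lowest Chow liver. The log2 fold change was -0.88 ± 0.12 (SE, adjusted p = 0.00259), and the call held without any single liver. *Gpt2*, its mitochondrial relative, had a log2 fold change of -0.06 ± 0.15 (SE, adjusted p = 0.858) and overlapping diets, at 350 to 445 CPM in HSD livers and 314 to 518 CPM in Chow livers. The aspartate aminotransferases *Got1* (cytosolic) and *Got2* (mitochondrial) had log2 fold changes of -0.41 ± 0.31 (SE, adjusted p = 0.46) and -0.13 ± 0.09 (SE, adjusted p = 0.434). *Got1* was at 253 to 381 CPM in HSD livers and varied widely among Chow livers, where Chow 1 had 195 CPM and Chow 2 had 719.5 CPM. *Gls2*, the liver glutaminase, and *Glud1*, glutamate dehydrogenase, had log2 fold changes of -0.38 ± 0.17 (SE, adjusted p = 0.202) and -0.04 ± 0.10 (SE, adjusted p = 0.834), and that of *Glud1* was 0.03 with library totals and 0.11 on TPM.

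The ratio of related genes within a liver does not depend on how libraries are scaled, and 6 such pairs were compared with an exact two-sided permutation test over the 126 ways to draw 4 of 9 livers. The genes of a pair are related here by name or reaction, and their proteins were not compared. The pairs were chosen with the values known, so their p-values, adjusted or not, describe the separation and are no independent support. The log2 ratio of *Gpt* to *Gpt2* was -1.70, -1.63, -1.64 and -1.60 in HSD 1 to HSD 4, against -0.59, -0.87, -0.76, -0.85 and -0.93 in Chow 1 to Chow 5. Every HSD liver lay below every Chow liver, and the difference was -0.84 (exact permutation p = 0.00794, the smallest that 126 splits allow, adjusted p = 0.0238 over the 6 pairs). For *Bhmt* over *Bhmt2*, a related methyltransferase, it was 2.38, 3.43, 2.90 and 2.84 in HSD 1 to HSD 4, against 4.30, 4.17, 4.41, 4.76 and 4.55 in Chow 1 to Chow 5. The difference was -1.55 and again complete (p = 0.00794, adjusted p = 0.0238, exact permutation test). The other 4 pairs overlapped, with differences of -0.15 for *Got1* over *Got2*, -0.26 for *Sds* over *Sdsl*, -0.26 for *Prodh2* over *Prodh* and 0.12 for *Agxt2* over *Agxt* (p = 0.198 to 0.690, exact permutation test).

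**Figure D2:**
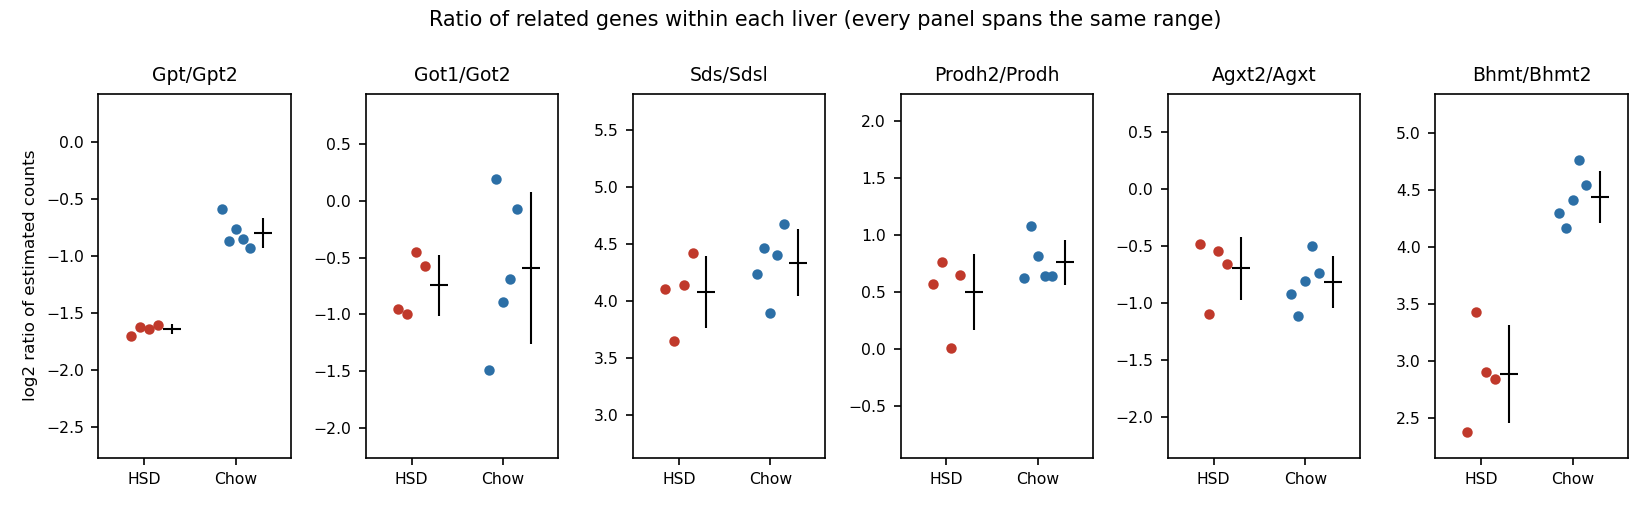
Log2 ratio of the estimated counts of 6 pairs of related genes in each liver (y axis; each panel spans the same number of log2 units). Points are single livers, HSD left and Chow right, with bars for the mean and SD. The diets are apart for Gpt over Gpt2 and Bhmt over Bhmt2 and overlap in the other 4 panels.

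Genes of methionine and homocysteine metabolism held the largest differences of the 43. Methionine is activated to S-adenosylmethionine, which gives its methyl group away and leaves homocysteine, and homocysteine is either methylated back to methionine or passed on to cysteine. Of the 6 genes here 2 fell, *Bhmt* and *Cth*, and the median log2 fold change was -0.51. *Bhmt* encodes betaine-homocysteine methyltransferase, which uses betaine to remake methionine (chromosome 13, 93616675 to 93637961, minus strand). It stood at 770.2, 1893, 1386 and 1284 CPM in HSD 1 to HSD 4, against 3643, 3374, 3719, 5172 and 4075 CPM in Chow 1 to Chow 5. The highest HSD liver, HSD 2, was well below the lowest Chow liver, Chow 2. The mean on HSD was 33.4% of that on Chow, at 1333 ± 460 CPM in HSD livers and 3997 ± 703 CPM in Chow livers (SD, n = 4 and 5), a log2 fold change of -1.58 ± 0.23 (SE, adjusted p = 0.00284). Per length, it averaged 753 ± 250 TPM in HSD livers and 2045 ± 508 TPM in Chow livers. Of its 31-base sequences 29.8% occur in other transcripts, chiefly *Gm5096*, which had 67 to 506 counts per liver against 16333 to 138002 for *Bhmt*. Its neighbour *Bhmt2*, which uses S-methylmethionine, had a log2 fold change of -0.09 ± 0.09 (SE, adjusted p = 0.599).

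*Cth* encodes cystathionine gamma-lyase, the last step from homocysteine to cysteine (chromosome 3, 157894248 to 157925077, minus strand). It stood at 132, 135, 112 and 145 CPM in HSD 1 to HSD 4, against 221, 407, 278, 349 and 338 CPM in Chow 1 to Chow 5. The HSD livers differed little among themselves and averaged 41.1% of the Chow mean, while the lowest Chow liver was Chow 1. The log2 fold change was -1.28 ± 0.16 (SE, adjusted p = 0.00164), and the calls of both *Cth* and *Bhmt* held without any single liver. *Cbs*, which makes the substrate of *Cth*, gave 453 to 542 CPM in HSD livers and 409 to 557 CPM in Chow livers, a log2 fold change of 0.05 ± 0.12 (SE, adjusted p = 0.851) that turned to -0.01 without Chow 4. *Mat1a*, the liver enzyme that makes S-adenosylmethionine, had -0.02 ± 0.11 (SE, adjusted p = 0.947), and 0.05 with library totals.

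*Gnmt*, glycine N-methyltransferase, spends surplus S-adenosylmethionine on glycine, and stood at 988, 1195, 1167 and 1132 CPM in HSD 1 to HSD 4, against 1204, 2088, 1322, 1695 and 1650 CPM in Chow 1 to Chow 5. The diets did not overlap, though HSD 2 and Chow 1 lay close together, and the log2 fold change was -0.51 ± 0.16 (SE, adjusted p = 0.074). *Ahcy*, which splits S-adenosylhomocysteine, stood at 1595, 1912, 1553 and 1771 CPM in HSD 1 to HSD 4, against 1932, 2956, 2044, 2599 and 2707 CPM in Chow 1 to Chow 5. It was likewise without overlap and not past the test (-0.52 ± 0.14 SE, adjusted p = 0.0516). Both passed without Chow 1 (adjusted p = 0.0194 for *Gnmt* and 0.0153 for *Ahcy*) and with DESeq2 (0.0133 and 0.00392), and *Ahcy* also without Chow 3 (0.0481) or with halved counts (0.0496). Of the sequences of *Ahcy* 71.4% occur in other transcripts, chiefly *Gm4737*, which had 78 to 2239 counts per liver against 22753 to 69347 for *Ahcy*.

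For 10 of the 13 genes that fell, promoter windows from RefSeq (GRCm38.p6) were searched on both strands for short motifs. They run from 250 bases before the start site to 50 after it, and windows of *Asl*, *Gpt* and *Cth* were not used here. The window of *Bhmt* is shown because it is the gene with the largest difference, those of *Agxt* and *Agxt2* because both glyoxylate aminotransferases fell and their windows hold a match, in capitals.
*Bhmt* (chr13:93637709-93638008, minus strand): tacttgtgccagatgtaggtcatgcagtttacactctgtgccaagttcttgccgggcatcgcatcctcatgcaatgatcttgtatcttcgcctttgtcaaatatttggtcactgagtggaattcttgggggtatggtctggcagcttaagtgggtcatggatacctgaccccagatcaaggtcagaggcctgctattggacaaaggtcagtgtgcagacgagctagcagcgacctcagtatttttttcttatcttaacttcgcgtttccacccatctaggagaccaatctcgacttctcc
*Agxt* (chr1:93134990-93135289, plus strand): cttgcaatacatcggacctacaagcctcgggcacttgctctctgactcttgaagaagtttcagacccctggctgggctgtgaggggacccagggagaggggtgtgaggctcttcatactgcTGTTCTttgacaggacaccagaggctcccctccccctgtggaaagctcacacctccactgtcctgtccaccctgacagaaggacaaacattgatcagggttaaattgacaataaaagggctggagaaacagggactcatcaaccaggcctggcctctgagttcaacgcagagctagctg
*Agxt2* (chr15:10358283-10358582, plus strand): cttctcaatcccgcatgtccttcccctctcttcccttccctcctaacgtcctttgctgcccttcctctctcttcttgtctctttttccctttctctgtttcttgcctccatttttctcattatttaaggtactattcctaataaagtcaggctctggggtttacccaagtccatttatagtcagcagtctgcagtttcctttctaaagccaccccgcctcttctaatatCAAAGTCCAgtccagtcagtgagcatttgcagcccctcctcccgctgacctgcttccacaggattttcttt
The *Bhmt* window held none of the motifs. The capitals in *Agxt* mark TGTTCT, the half-site of the glucocorticoid receptor, at -129 from the start, and those in *Agxt2* mark CAAAGTCCA, an HNF4 motif, at -21. TGTTCT was in 2 of the 10 windows of genes that fell (*Kmo* at 14 and *Agxt*) and in 4 of the 33 windows of the whole list, against 19.0% of 27025 windows of this length. CAAAGTCCA was in 1 of 10 and 1 of 33, against 0.477% of all windows. The cAMP response element half-site TGACG was in 0 of 10 and 4 of 33 (21.0% of all), its full form TGACGTCA, which contains it, in 0 and 0 (1.88%), the C/EBP palindrome TTGCGCAA in 0 and 0 (0.185%) and the E-box CACGTG in 0 and 2 (7.24%).

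Both glyoxylate aminotransferases fell. *Agxt* encodes alanine-glyoxylate aminotransferase, which turns glyoxylate into glycine (chromosome 1, 93135240 to 93145421, plus strand), and stood at 98.9, 204, 154 and 162 CPM in HSD 1 to HSD 4, against 266, 379, 277, 243 and 259 CPM in Chow 1 to Chow 5. HSD 1 was lowest and HSD 2 closest to the Chow range, and the log2 fold change was -0.88 ± 0.19 (SE, adjusted p = 0.0193). The call was lost without HSD 3 (adjusted p = 0.0544) or HSD 4 (0.0563). *Agxt2*, a mitochondrial aminotransferase of glyoxylate that also transaminates beta-aminoisobutyrate and dimethylarginines (chromosome 15, 10358532 to 10410153, plus strand), stood at 70.9, 95.3, 105 and 102 CPM in HSD 1 to HSD 4, against 141, 175, 159, 172 and 156 CPM in Chow 1 to Chow 5. The highest HSD liver, HSD 3, lay below Chow 1, the lowest Chow liver. The log2 fold change was -0.78 ± 0.12 (SE, adjusted p = 0.00447), a call that held without any single liver. Summed, their TPM was 151 to 261 in HSD livers and 284 to 446 in Chow livers, with no overlap.

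Glyoxylate also arises from hydroxyproline, whose breakdown starts with *Prodh2*, hydroxyproline dehydrogenase (chromosome 7, 30493622 to 30513402, plus strand). *Prodh2* stood at 90.5, 101, 89.96 and 99.0 CPM in HSD 1 to HSD 4, against 134, 165, 127.3, 175 and 167 CPM in Chow 1 to Chow 5. HSD livers lay within a narrow range below all Chow livers, with a log2 fold change of -0.69 ± 0.11 (SE, adjusted p = 0.00523) that held without any single liver. *Prodh*, proline dehydrogenase, had -0.42 ± 0.16 (SE, adjusted p = 0.134), with HSD 3 at 89.1 CPM among the Chow livers (72.2 to 112 CPM) and the other HSD livers at 59.6 to 63.0 CPM. *Aldh4a1*, a later dehydrogenase of both routes, had -0.27 ± 0.12 (SE, adjusted p = 0.201), and 31% of its 31-base sequences occur in other transcripts, chiefly *Gm21969*.

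Tyrosine breakdown runs from *Tat* over *Hpd* and *Hgd* to *Fah*, and only *Fah*, its last step, passed. *Fah* encodes fumarylacetoacetate hydrolase (chromosome 7, 84585159 to 84606722, minus strand) and stood at 477, 551, 516 and 542 CPM in HSD 1 to HSD 4, against 718, 784, 631, 706 and 723 CPM in Chow 1 to Chow 5. The diets were apart, with HSD 1 and Chow 3 the lowest of their diets, and the log2 fold change was -0.45 ± 0.10 (SE, adjusted p = 0.0197). The call was lost without HSD 1 (adjusted p = 0.0779), HSD 3 (0.0563) or HSD 4 (0.0591). *Hpd*, the dioxygenase before *Hgd*, stood at 1370, 1461, 1296 and 1480 CPM in HSD 1 to HSD 4, against 1625, 2258, 1609, 2052 and 2059 CPM in Chow 1 to Chow 5. Its diets did not overlap either, but it did not pass (log2 fold change -0.45 ± 0.13 SE, adjusted p = 0.0514), except without Chow 1 (0.0193) or Chow 3 (0.0432), with DESeq2 (0.00318) or with halved counts (0.0494). *Tat*, tyrosine aminotransferase and a classic glucocorticoid-responsive gene, stood at 1753, 1093, 1553 and 1813 CPM in HSD 1 to HSD 4, against 1422, 2041, 1121, 1033 and 1003 CPM in Chow 1 to Chow 5. It had the highest log2 fold change of the 43 genes (0.23 ± 0.22 SE, adjusted p = 0.57), with Chow 2 above every HSD liver and HSD 2 among the lower Chow livers. *Hgd*, homogentisate dioxygenase, had -0.15 ± 0.13 (SE, adjusted p = 0.541).

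Tryptophan breakdown starts with *Tdo2* and continues over kynurenine, and 1 of its 5 genes fell. *Kmo* encodes kynurenine 3-monooxygenase (chromosome 1, 175620381 to 175662116, plus strand) and stood at 216, 219.8, 232 and 233 CPM in HSD 1 to HSD 4, against 366, 275, 318, 299.7 and 302 CPM in Chow 1 to Chow 5. Unlike most of the 43 genes it was highest in Chow 1 and lowest of the Chow livers in Chow 2, and every HSD liver lay below Chow 2. The log2 fold change was -0.47 ± 0.10 (SE, adjusted p = 0.0164), and the call was lost without HSD 1 (adjusted p = 0.0659) or HSD 4 (0.0512). *Tdo2*, tryptophan dioxygenase, stood at 1033, 949, 919.5 and 1063 CPM in HSD 1 to HSD 4, against 761, 1288, 1009, 1130 and 1292 CPM in Chow 1 to Chow 5. Its diets overlapped, with Chow 1 the lowest of all livers (log2 fold change -0.14 ± 0.15 SE, adjusted p = 0.604). *Kynu*, kynureninase, had 0.09 ± 0.11 (SE, adjusted p = 0.657), *Haao*, the next dioxygenase, -0.20 ± 0.11 (SE, adjusted p = 0.293), and *Acmsd*, which turns the pathway away from NAD synthesis, -0.60 ± 0.27 (SE, adjusted p = 0.193). *Acmsd* had 17.9 to 32.8 CPM in HSD livers, and Chow 2, at 72.1 CPM, was far above the remaining Chow livers (27.8 to 39.0 CPM).

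Histidine breakdown had 1 of 4 genes lower, its first step. *Hal* encodes histidine ammonia-lyase (chromosome 10, 93488768 to 93519304, plus strand) and stood at 325, 221, 299 and 293 CPM in HSD 1 to HSD 4, against 375, 513, 368, 484 and 417 CPM in Chow 1 to Chow 5. In CPM HSD 1, the highest HSD liver, lay close below Chow 3 and Chow 1. In TPM it lay above both (153.2 TPM against 148.5 and 147.4 TPM). The log2 fold change was -0.60 ± 0.14 (SE, adjusted p = 0.027), and the call was lost without HSD 2 (adjusted p = 0.0632), HSD 3 (0.0593), HSD 4 (0.0722), Chow 2 (0.0508) or Chow 4 (0.0522). With library totals in place of TMM it was lost as well. The following steps, *Uroc1*, *Amdhd1* and *Ftcd*, had log2 fold changes of -0.22 ± 0.11 (SE, adjusted p = 0.247), -0.36 ± 0.11 (SE, adjusted p = 0.0792) and -0.26 ± 0.11 (SE, adjusted p = 0.155), and *Amdhd1* passed without Chow 1 (0.0165). For serine and threonine neither gene passed. *Sds*, serine dehydratase, stood at 175, 116, 142 and 184 CPM in HSD 1 to HSD 4, against 171, 311, 136, 183 and 247 CPM in Chow 1 to Chow 5. The diets overlapped, with HSD 2 lowest and Chow 2 highest (log2 fold change -0.44 ± 0.22 SE, adjusted p = 0.251), and its relative *Sdsl*, at 8.05 to 10.2 CPM in HSD livers and 8.62 to 14.1 CPM in Chow livers, had -0.16 ± 0.16 (SE, adjusted p = 0.579).

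Of 5 genes of branched-chain amino acid and lysine breakdown, 2 mitochondrial acyl-CoA dehydrogenases fell. *Ivd*, isovaleryl-CoA dehydrogenase of leucine breakdown (chromosome 2, 118861954 to 118882909, plus strand), stood at 142, 142, 149.8 and 151 CPM in HSD 1 to HSD 4, against 210.2, 277, 203, 223 and 220.5 CPM in Chow 1 to Chow 5. The HSD livers lay within a few CPM of each other and below every Chow liver, with a log2 fold change of -0.63 ± 0.10 (SE, adjusted p = 0.00523). *Gcdh*, glutaryl-CoA dehydrogenase of lysine and tryptophan breakdown (chromosome 8, 84886393 to 84893921, minus strand), stood at 299.9, 334, 316 and 327 CPM in HSD 1 to HSD 4, against 442, 460.2, 439, 460.3 and 449.5 CPM in Chow 1 to Chow 5. It had the smallest standard error of the 43 genes, and its log2 fold change was -0.50 ± 0.08 (SE, adjusted p = 0.00657). Both calls held without any single liver. *Bckdha* and *Bckdhb*, subunits of the branched-chain keto acid dehydrogenase that commits these amino acids to breakdown, had log2 fold changes of -0.11 ± 0.09 (SE, adjusted p = 0.467) and -0.23 ± 0.13 (SE, adjusted p = 0.306), and *Aass*, the first enzyme of lysine breakdown, -0.19 ± 0.13 (SE, adjusted p = 0.4).

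**Figure D3:**
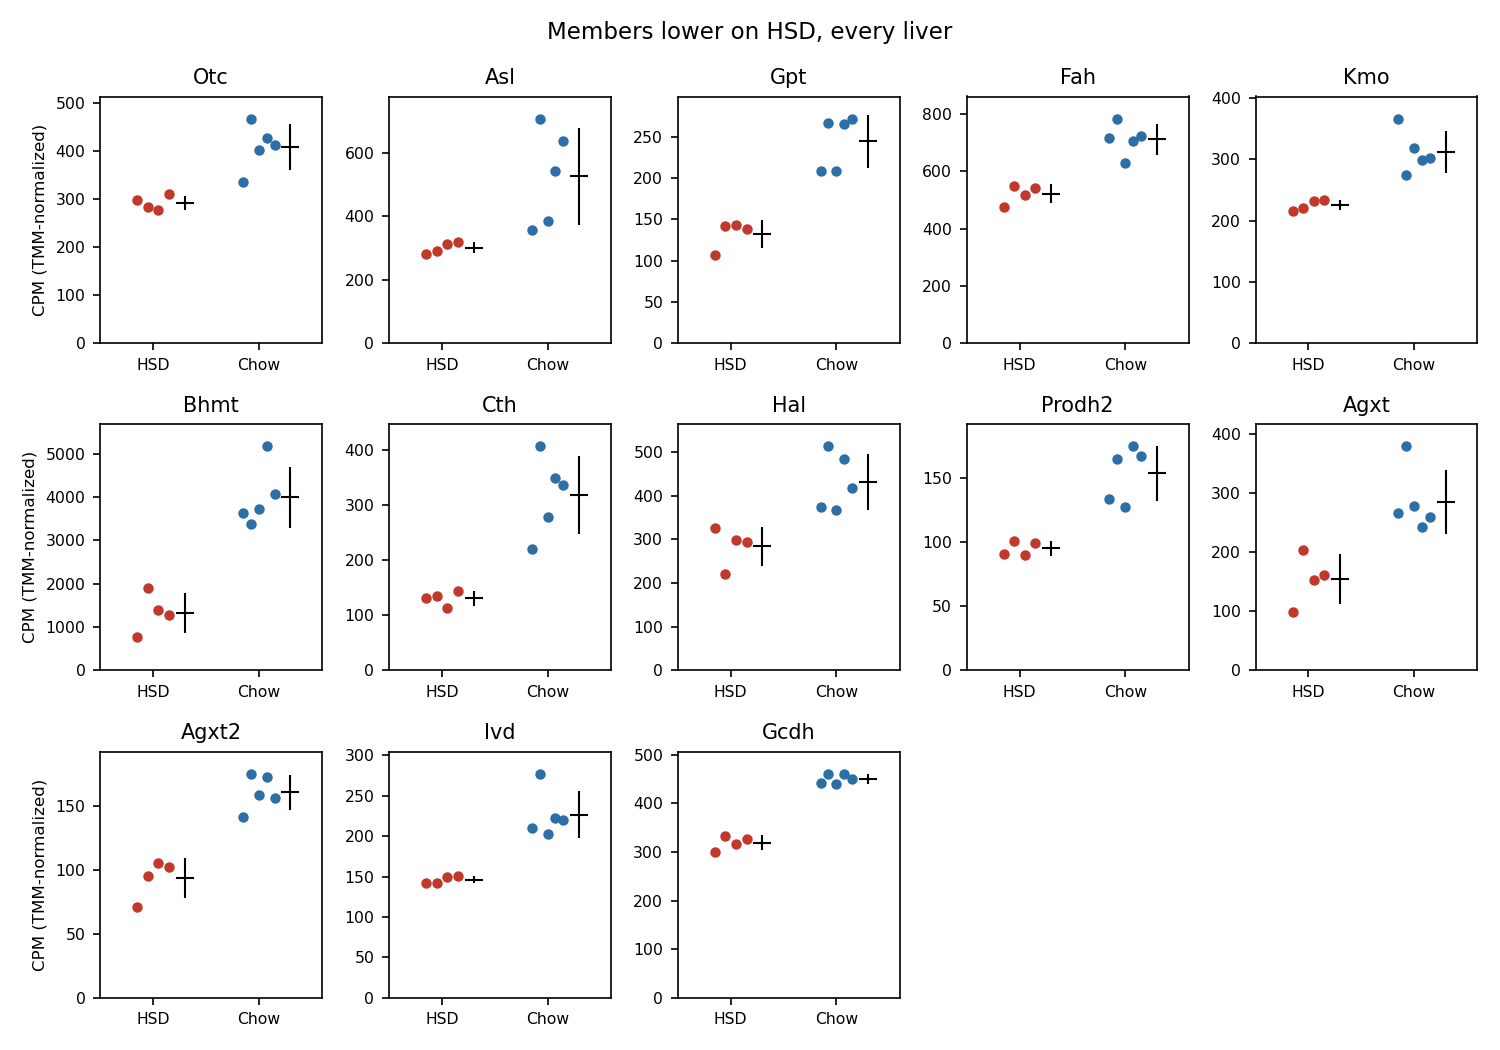
CPM (TMM-normalized, y axis from 0) of the 13 genes that fell, 1 point per liver, HSD left and Chow right, with bars for the mean and SD. In every panel the highest HSD liver is below the lowest Chow liver, and Bhmt and Cth have the largest fold changes.

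The Chow livers did not behave alike across the 43 genes, and the Chow livers that stood low were also apart in the clock genes. Centred on each gene's mean over the 9 livers, the median of the 43 log2 CPM values was -0.24, -0.17, -0.21 and -0.10 in HSD 1 to HSD 4, and -0.03, 0.41, -0.06, 0.25 and 0.23 in Chow 1 to Chow 5. Chow 1 and Chow 3 were each the lowest Chow liver in 17 of the genes, and Chow 2 was the highest in 27. Chow 1 and Chow 3 are also the Chow livers with high *Arntl*, while *Dbp*, at 35.1 to 96.2 CPM in HSD livers, was 43.3 and 27.4 CPM in these and 114 to 129.5 CPM in Chow 2, Chow 4 and Chow 5. Fitted with *Arntl* minus *Dbp* (log2 CPM) as a covariate, 13 of the 43 genes were lower and 0 higher. Over all 12091 genes, 428 (3.54%) were lower and 448 higher in that fit. The median log2 fold change of the 43 was -0.24, against -0.38 without the covariate. At an unadjusted p under 0.05 from edgeR, 19 of the 43 were lower, against 23 without it. No source used here gives the time of day of collection. Chow 2, the liver highest in most of the genes, is the one with the high red blood cell sum. The part of the clock, of the acute phase genes of Chow 1 and of the red blood cell genes of Chow 2 in these results was not tested further.

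Of 8 markers of periportal hepatocytes, 4 of which (*Ass1*, *Sds*, *Hal* and *Gls2*) are among the 43 genes, 2 were lower, *Hal* and *Cyp2f2* (log2 fold change -0.63 ± 0.12 SE, adjusted p = 0.00892). That is 25% of the 8, against 3.23% of all genes. At an unadjusted p under 0.05 from edgeR 5 were lower, DESeq2 called 4 lower and limma 1. The median log2 fold change of the 8 was -0.52, and their summed TPM was 5292 to 6413 in HSD livers and 5245 to 9613 in Chow livers. Of 10 markers of pericentral hepatocytes, which lie at the other end of the lobule, 2 were lower, *Cyp1a2* and *Rhbg* (20%, against 3.23% of all genes). At an unadjusted p under 0.05 from edgeR 4 were lower, DESeq2 called 2 lower and limma 0. The median log2 fold change of the 10 was -0.12, and their sums were 4648 to 6379 TPM in HSD livers and 4597 to 6507 TPM in Chow livers. The 8 Kupffer cell and macrophage markers all had log2 fold changes under 0 with none past the test (0 by edgeR, with 5 lower at an unadjusted p under 0.05 and 0 past the test with DESeq2 or limma), and summed to 109 to 223 TPM in HSD livers and 173 to 316 TPM in Chow livers. Of 6 stellate cell markers, 5 had log2 fold changes over 0 with none past the test (0 by edgeR, with 3 higher at an unadjusted p under 0.05, 2 past the test with DESeq2 and 0 with limma), and their sums did not overlap, at 135 to 171 TPM in HSD livers and 85.2 to 134.6 TPM in Chow livers. All 5 cholangiocyte markers were over 0 (0 past the test by edgeR, 2 higher at an unadjusted p under 0.05, 0 with DESeq2 or limma), with sums of 46.2 to 69.6 TPM in HSD livers and 24.7 to 58.2 TPM in Chow livers. All 5 red blood cell markers were under 0, of which *Alas2*, an enzyme of heme synthesis, was lower (log2 fold change -1.14 ± 0.10 SE, adjusted p = 0.00016) and the 4 globin genes did not pass. The part of these cell types in the lower enzyme genes was not tested.

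Library labels ran in 2 series of numbers, and both held livers of both diets. Within each series the mean log2 CPM of the Chow livers was subtracted from that of the HSD livers, without a fit. In the first series, with 2 HSD and 4 Chow livers, the median of this difference over the 43 genes was -0.39 and 39 were under 0. In the second, with 2 HSD livers and 1 Chow liver and hence no test, the median was -0.39 and 40 were under 0. All 13 genes that fell were under 0 in both, from -1.70 to -0.46 in the first and from -1.61 to -0.37 in the second. In each of the 13 every HSD liver lay below every Chow liver in CPM, so this sign was fixed in advance and is no separate support.

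**Figure D4:**
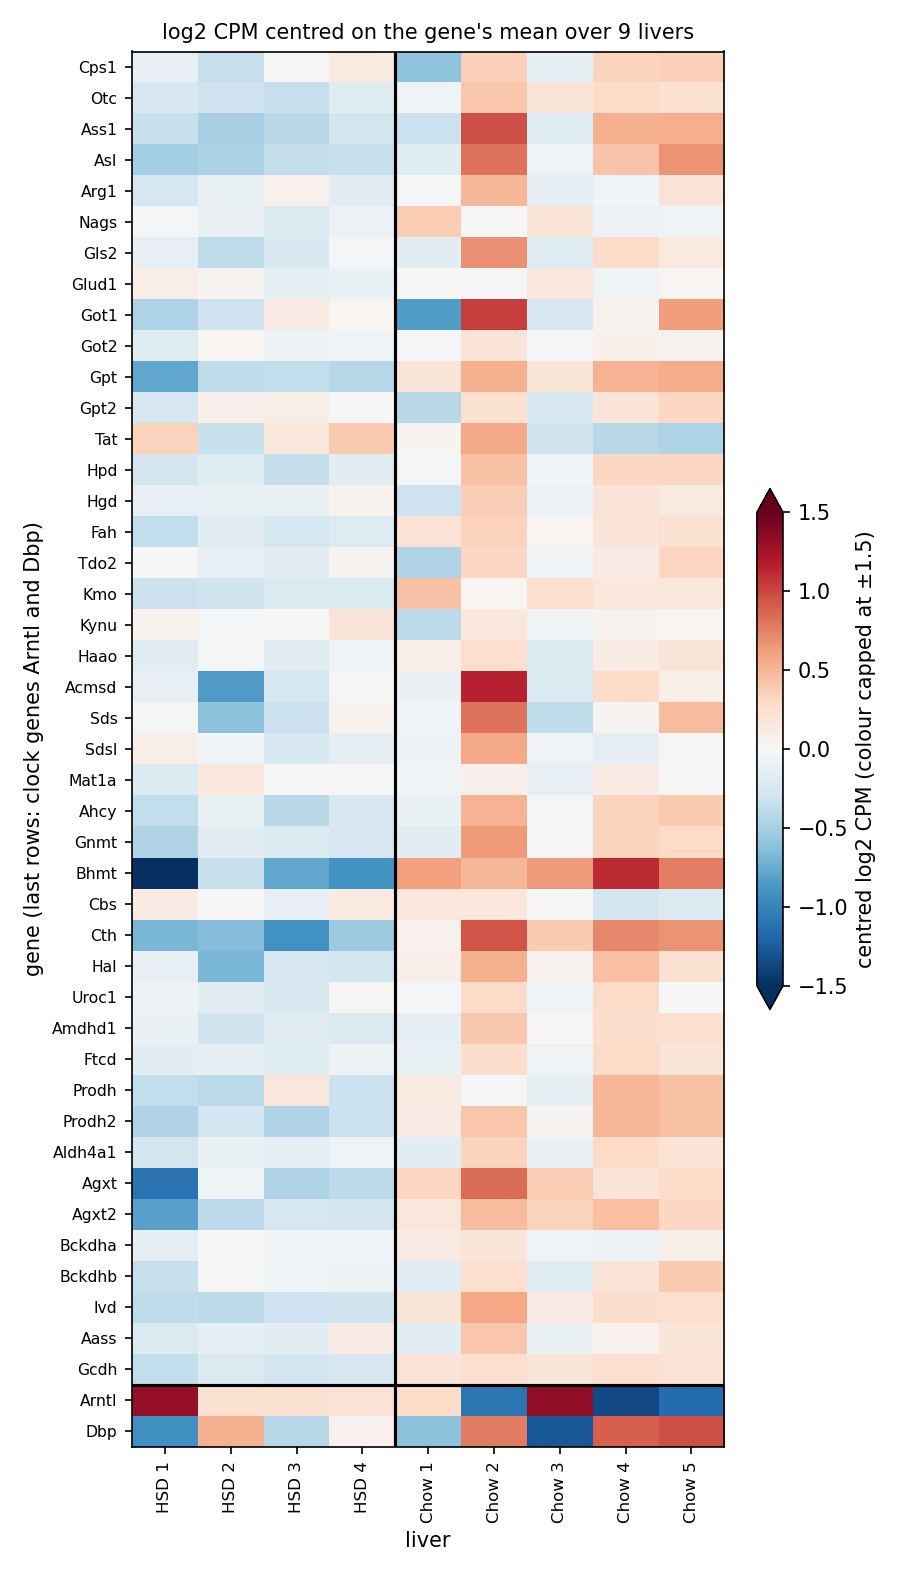
Log2 CPM of the 43 genes (rows) in the 9 livers (columns, HSD left and Chow right), centred on each gene's mean, red above and blue below it, with the clock genes Arntl and Dbp as the last rows. Chow 2, Chow 4 and Chow 5 are red over most rows, while Chow 1 and Chow 3 are near the mean and differ from them in the clock genes too.

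A further list of 47 genes of amino acid breakdown outside the 43 had 44 tested, of which 9 fell (20.5%, against 3.23% of all genes) and 1 rose, with a median log2 fold change of -0.24. DESeq2 called 14 of the 44 lower and 1 higher, and limma on log2(TPM + 1) called 3 lower and 0 higher. Of all genes these tools called 5.26% and 0.958% lower. This list too was chosen with earlier results of these data known. Several of the genes that fell stand next to the genes above in their pathways. *Sardh*, sarcosine dehydrogenase, which oxidizes the product of *Gnmt*, stood at 597, 622, 590.5 and 617 CPM in HSD 1 to HSD 4, against 1032, 1205, 1094, 1197 and 1113 CPM in Chow 1 to Chow 5. The diets were far apart (log2 fold change -0.90 ± 0.09 SE, adjusted p = 0.000417). *Dmgdh*, which oxidizes the dimethylglycine that *Bhmt* leaves and lies next to *Bhmt* and *Bhmt2* on chromosome 13, had -0.50 ± 0.13 (SE, adjusted p = 0.0379), with HSD 2 above Chow 1, and its call was lost without any one liver other than Chow 1 (adjusted p = 0.0525 to 0.123), with the label series as a covariate (0.0531), with the replicate number as a block (0.0807) and with library totals (0.0871). *Aadat*, an aminotransferase of kynurenine and aminoadipate, stood at 53.3, 60.6, 54.7 and 56.7 CPM in HSD 1 to HSD 4, against 106, 138, 154, 102 and 120.1 CPM in Chow 1 to Chow 5. Its log2 fold change was -1.14 ± 0.12 (SE, adjusted p = 0.000601), and the calls of *Aadat*, *Sardh*, *Bcat2* and *Mpst* held without any single liver. *Bcat2*, the mitochondrial branched-chain aminotransferase, had -0.84 ± 0.13 (SE, adjusted p = 0.00502), *Mccc2*, a subunit of the leucine enzyme methylcrotonyl-CoA carboxylase, -0.52 ± 0.11 (SE, adjusted p = 0.0164), lost without HSD 1 (0.0642) and with the replicate block (0.0539), *Ido2*, a relative of tryptophan dioxygenase in function, -0.49 ± 0.10 (SE, adjusted p = 0.0173), lost without HSD 1 (0.0688), and *Mpst*, a sulfurtransferase of cysteine breakdown, -0.48 ± 0.08 (SE, adjusted p = 0.0057). On both TPM scales with limma the calls of *Dmgdh*, *Mccc2*, *Ido2* and *Mpst* were lost. The remaining 2 genes that fell had smaller differences.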

How the data were processed

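RNA of 9 mouse livers (4 HSD, 5 Chow, grouped by their labels) was sequenced by the authors from poly-A libraries as pairs of 51-base reads and quantified with kallisto (version not given in the sources used here) on GRCm38, per the submitters' processing notes. The authors deposited an unscaled table of estimated counts by gene symbol and one of TPM values, scaled by the authors per transcript length and library, which sum to 923061 to 945110 over the symbols listed. The step from transcripts to symbols is not stated there, and kallisto divides reads that fit several transcripts. Of the values above 0, 34.1% were whole within 1e-06, and 99.1% of these were even, so results were also computed with counts halved. The tables held 0 columns of other samples.

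Estimated counts were rounded to whole numbers, filtered for low counts (filterByExpr, at least 10 counts and 15 in total) and, after TMM scaling, compared between diets with edgeR 4.0.16 in R 4.3.3 (quasi-likelihood, 7 residual degrees of freedom, biological coefficient of variation 0.187). Benjamini-Hochberg adjustment ran over all 12091 genes tested, with a threshold of 0.05. The scripts were tested on simulated data. Libraries of 1 diet were not repeats (chi-square per degree of freedom 8.07 to 140 over 16 pairs). Depth limits the precision of low genes, such as *Sdsl*.

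Alternatives were DESeq2 1.42.0, limma 3.58.1 on log2(TPM + 1) and log2(TPM + 0.1) for a mean TPM of at least 1, other size factors, library totals, no filter, halved counts, the replicate number as a block, the label series, a clock covariate, an adjusted p under 0.01 and each liver left out. The members and lists were chosen with earlier results of these data known. Values of every liver are given for genes past the test, those whose diets do not overlap, and *Cps1*, *Ass1*, *Arg1*, *Tat*, *Tdo2*, *Sds*, *Gnmt* and *Hal*. In the companion lists, up to 12 genes past the test are named by size of log2 fold change, and 1 of them is not reported here. Positions are from GENCODE M21 (GRCm38) and span whole genes, introns included. Promoters are RefSeq windows (GRCm38.p6), which 33 of the 43 genes matched by symbol. *Agxt2* has 2 windows, of which the first was used. Motifs were matched exactly on both strands. Shared sequence means the fraction of 31-base words of a gene that other genes' transcripts also hold. A comparison of the proteins of related genes was not run.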

Additional observations from a re-analysis of the deposited data

Results flagged for a closer look

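A gene is listed here where 1 liver was separated from the nearest liver on the same diet by more than 0.83 of the range of the 4 HSD livers or 0.71 of the range of the 5 Chow livers, which are Dixon's critical values. Such a gap occurred in 4 of the 86 groups of livers examined (43 genes in 2 diets), which is 4.65%, and chance gives about 1 in 20. *Gpt* in HSD 1 was at 107 CPM while HSD 2 to HSD 4 had 138 to 143 CPM, with a gap of 0.881 of the range. *Hgd* in HSD 4 was at 616 CPM and HSD 1 to HSD 3 at 543 to 548 CPM (0.931 of the range). *Prodh* in HSD 3 was at 89.1 CPM and the remaining HSD livers at 59.6 to 63.0 CPM (0.861). *Sdsl* in Chow 2 was at 14.1 CPM and the remaining Chow livers at 8.62 to 9.67 CPM (0.768).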

How the results depend on the processing

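Among the 43 genes, edgeR called 13 lower, against 5 with limma on log2(TPM + 1) or log2(TPM + 0.1), 8 with the replicate number as a block, 0 with the first label series alone, 7 at an adjusted p under 0.01 and 7 to 18 when 1 liver was left out. Size factors of the DESeq2 type, library totals, DESeq2, no filter on low counts, halved counts, the label series and the clock covariate gave 11 to 18, and higher calls were 0 in every setting. Over all genes, the lower calls (391) were 254 with library totals, 663 with DESeq2, 101 with limma on either TPM scale, 205 with the block, 19 with the first label series, 112 at an adjusted p under 0.01 and 149 to 493 with 1 liver left out, and the higher calls (416) were 632 with DESeq2, 220 with the block, 15 with the first label series, 97 at an adjusted p under 0.01 and 153 to 475 with 1 liver left out. The median log2 fold change of the 43 genes was -0.18 on both TPM scales, where that of all genes was 0.14 and 0.16. The difference between these medians was thus -0.32 and -0.34, against -0.37 with TMM. Same-numbered HSD and Chow livers correlated at -0.061 to 0.066, and 1 of 4 HSD livers correlated best with its own number, so the numbers were not taken to pair mice. The block took the calls of *Asl*, *Fah*, *Kmo*, *Otc* and *Hal*.

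Of the 13 genes that fell, 7 passed without any single liver and 0 changed sign in any setting. Of the 43, 10 changed sign in some setting, all of them genes that did not pass. With limma on log2(TPM + 1) and log2(TPM + 0.1) the log2 fold changes were 0.0213 and 0.0214 for *Cps1*, 0.112 and 0.113 for *Glud1*, 0.0397 and 0.0399 for *Got2*, 0.048 and 0.0485 for *Gpt2*, 0.0438 and 0.0439 for *Hgd*, 0.0415 and 0.0416 for *Tdo2*, 0.0362 and 0.0404 for *Sdsl*, 0.161 for *Mat1a* on both scales, and 0.0569 and 0.0572 for *Bckdha*. With library totals they were 0.0267 for *Glud1*, 0.00201 for *Gpt2* and 0.0506 for *Mat1a*. The clock covariate gave 0.00111 for *Cps1*, 0.112 for *Gpt2*, 0.0497 for *Mat1a* and -0.00152 for *Cbs*, the block 0.0341 for *Gpt2*, and the first label series 0.0492 for *Glud1*. With 1 liver left out the range was -0.16 to 0.0129 for *Gpt2*, -0.0769 to 0.0451 for *Mat1a* and -0.0108 to 0.0977 for *Cbs*. The cause was not tested. Fewer livers remain when the first label series stands alone or 1 liver is left out.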

Other observations

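Transporters and regulators of amino acid metabolism were read beside the enzymes. Of 13 carriers of amino acids and urea cycle intermediates 12 were tested, 0 fell (edgeR, with 4 lower at an unadjusted p under 0.05, 2 with DESeq2 and 0 with limma) and 1 rose, against 3.23% of all genes lower and 3.44% higher, and the median log2 fold change was -0.16. *Slc6a9*, a glycine transporter, stood at 65.3, 49.9, 55.3 and 55.7 CPM in HSD 1 to HSD 4, against 43.8, 28.8, 44.3, 34.1 and 41.5 CPM in Chow 1 to Chow 5. Every HSD liver lay above every Chow liver, and the log2 fold change was 0.56 ± 0.13 (SE, adjusted p = 0.0282), a call that was lost without HSD 1 (adjusted p = 0.0947), HSD 3 (0.0611), HSD 4 (0.0701) or Chow 4 (0.0575), and with the label series as a covariate (0.0552).

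Of 17 regulators, 3 rose and 1 fell, against 3.44% of all genes higher and 3.23% lower, with 9 of the 17 under 0 and a median log2 fold change of -0.036. *Ppargc1a*, a coactivator of gluconeogenic and mitochondrial genes, stood at 14.1, 10.7, 12.4 and 16.3 CPM in HSD 1 to HSD 4, against 5.30, 8.76, 5.58, 8.10 and 7.33 CPM in Chow 1 to Chow 5. *Tsc22d3*, a gene known to be induced by glucocorticoids, stood at 128.1, 99.4, 116 and 106 CPM in HSD 1 to HSD 4, against 73.2, 85.4, 78.6, 61.2 and 75.0 CPM in Chow 1 to Chow 5. In both every HSD liver was above every Chow liver, with log2 fold changes of 0.93 ± 0.17 (SE, adjusted p = 0.00955) and 0.59 ± 0.11 (SE, adjusted p = 0.00955), and both calls held without any single liver. *Fkbp5* (0.34 ± 0.25 SE, adjusted p = 0.465) and *Klf15* (0.15 ± 0.11 SE, adjusted p = 0.445), of the same list, overlapped between diets and did not pass. A part of glucocorticoids was not tested. *Creb3l3*, a hepatocyte transcription factor, was lower, with -0.58 ± 0.14 (SE, adjusted p = 0.0314), and its call was lost without HSD 1 (0.0723), HSD 3 (0.0674), HSD 4 (0.0926), Chow 3 (0.0622) or Chow 5 (0.0555), with the label series as a covariate (0.0566) and with the replicate number as a block (0.107). On both TPM scales it was lost too. The remaining regulator that rose had a smaller difference.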
